A study of Mus musculus with 10 samples.

Results

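Expression of 9 genes that regulate or mark the naive state of pluripotency, other than the Klf factors, was followed in mouse embryonic stem (ES) cells and in cells differentiated from them toward cardiomyocytes, with and without the dioxin TCDD. The genes were taken by symbol from the table of counts per gene: Prdm14, Nr0b1, Esrrb, Tfcp2l1, Nr5a2, Tbx3, Zfp42, Tcl1 and Fbxo15. These are 9 of the 24541 rows of the table, and all 9 passed the filter on low counts, which left 15175 genes. Each of 5 groups held 2 libraries of polyadenylated RNA. ES cells were untreated and grown in medium with leukemia inhibitory factor (LIF). They belong to a C57BL/6N-C2 line, selected with G418 for a plasmid in which the Nkx2.5 promoter, from a cardiac transcription factor gene, drives puromycin resistance and GFP. The other 4 groups, labelled cardiomyocytes, came from this line without LIF, by Noggin, then BMP4, then puromycin, which is meant to keep cells with an active Nkx2.5 promoter. One of them received the solvent DMSO for 24 h, and 3 received 5 nM TCDD, a dioxin that binds and activates the aryl hydrocarbon receptor, for 24, 72 or 96 h. TCDD was given in DMSO. The solvent control was taken at 24 h, so for the 72 and 96 h groups the length of exposure and the time in culture cannot be told apart.

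Mouse ES cells in LIF hold a naive state like that of the early epiblast. A network of transcription factors keeps it, fed by LIF through STAT3 and by Wnt signalling, which relieves repression by Tcf7l1. When cells leave the state, this outer network is shut down early, while Oct4 (Pou5f1) and Sox2 stay on for longer and formative genes such as Fgf5 and Pou3f1 come on. The 9 genes take several places in that network: receptors and factors that hold the state (Esrrb, Nr5a2, Nr0b1, Tfcp2l1, Tbx3, Prdm14), a kinase cofactor (Tcl1) and markers used as reporters of it (Zfp42, Fbxo15).

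Library totals were 15326612 to 31192459 counts. Of the libraries, 3 stood apart. The trend of counts with transcript GC content spanned 1.90 on the log2 scale in ES replicate 2 and 1.09 in TCDD 24 h replicate 1, against 0.0744 to 0.598 in the other 8. The ribosomal RNA gene Rn45s took 10.95% of the counts of TCDD 72 h replicate 1 and 1.447 to 4.221% elsewhere. The cells labelled cardiomyocytes carried little heart muscle RNA: the 10 cardiomyocyte markers examined summed to 31.2 to 33.1 CPM (counts scaled to library size) in the DMSO libraries and 14.8 to 16.0 in ES cells, and in DMSO 3 of the 10 stayed under 1 CPM. Of the 8 tested, 3 were called higher with DMSO than in ES cells and 0 lower, where 15.5% of all genes rose and 15.5% fell. Their median log2 fold change was 0.77, against 0.01 over all genes. The call of Tnnt2, among these, ended in some alternative fits. Nkx2-5, whose promoter drives the selection, was itself at 0.640 ± 0.341 CPM in ES cells, 1.03 ± 0.0303 with DMSO, and 1.33 ± 0.345, 2.23 ± 0.364 and 2.88 ± 1.09 after 24, 72 and 96 h of TCDD, with no call against ES cells (edgeR adjusted p = 0.275) or against DMSO. Oct4, the core pluripotency factor, was at 1012 ± 38.6 CPM (SD, n = 2) with DMSO and 1681 ± 578 in ES cells. Levels below are CPM after TMM scaling, as mean ± SD over 2 libraries where a single value is given. In bulk RNA, fewer cells of a type and less RNA per cell cannot be told apart, which applies to every fall described here.

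Of the genes, 3 encode orphan nuclear receptors. Esrrb binds beside Oct4 and Nanog at many ES cell enhancers and is a target of Tcf7l1. Its gene lies on chromosome 12 (86361117 to 86521628, plus strand, RefSeq GRCm38). It was at 855 and 1211 CPM in the ES libraries, 248 and 238 with DMSO, 257 and 214 after 24 h of TCDD, 86.8 and 112 after 72 h, and 105 and 101 after 96 h. The levels formed 3 steps, ES cells above the cultures sampled at 24 h, and these above those sampled at 72 and 96 h, while neighbours inside a step overlapped. Nr5a2, which activates the Oct4 gene and can stand in for Oct4 in reprogramming, lies on chromosome 1 (136842562 to 136960448). Its ES libraries read 62.3 and 29.1 CPM, the DMSO libraries 28.5 and 29.1, TCDD 24 h 13.9 and 18.7, TCDD 72 h 10.2 and 12.2, and TCDD 96 h 12.5 and 11.6. In ES cells 1 library was far above the DMSO pair and the other nearly level with it, and all 6 TCDD libraries were below both DMSO libraries. Nr0b1 (Dax1), a receptor-like corepressor that lacks the usual DNA-binding domain and binds Oct4, lies on the X chromosome (86191775 to 86195947). It stood at 133 and 117 CPM in ES cells, 28.3 and 25.9 with DMSO, 20.4 and 22.3 after 24 h of TCDD, 6.22 and 8.38 after 72 h, and 8.63 and 7.65 after 96 h. Each group was clear of the one before it until 72 h, and the last pair overlapped.

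The sequences just before the start sites are shown for the 3 genes whose windows held a match to a motif of interest other than the Klf box, since TCDD acts through the aryl hydrocarbon receptor and LIF through STAT3. Each is the 250 bases upstream of a RefSeq start (GRCm38.p6), 5′ to 3′ on the gene's strand, and capitals mark matches on either strand: for Nr0b1 (chrX:86191525-86191774, plus strand) a receptor core TNGCGTG at -48 to -42 from the start and a CCACCC box, for Esrrb (chr12:86360867-86361116, plus strand, the more upstream of its 2 listed starts) a STAT site TTCNNNGAA at -178 to -170 and a CCACCC box, and for Zfp42 (chr8:43307010-43307259, minus strand) an octamer ATGCAAAT at -186 to -179 on the opposite strand and 2 CCACCC boxes.
Nr0b1: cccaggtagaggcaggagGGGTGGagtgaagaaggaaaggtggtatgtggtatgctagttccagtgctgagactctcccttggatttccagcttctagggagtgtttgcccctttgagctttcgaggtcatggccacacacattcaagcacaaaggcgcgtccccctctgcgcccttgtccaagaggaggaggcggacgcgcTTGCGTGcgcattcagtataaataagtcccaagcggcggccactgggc
Esrrb: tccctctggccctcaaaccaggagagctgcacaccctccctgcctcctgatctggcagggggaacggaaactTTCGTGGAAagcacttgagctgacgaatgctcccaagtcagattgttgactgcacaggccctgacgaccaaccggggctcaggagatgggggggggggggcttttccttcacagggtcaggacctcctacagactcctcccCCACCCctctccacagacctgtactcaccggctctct
Zfp42: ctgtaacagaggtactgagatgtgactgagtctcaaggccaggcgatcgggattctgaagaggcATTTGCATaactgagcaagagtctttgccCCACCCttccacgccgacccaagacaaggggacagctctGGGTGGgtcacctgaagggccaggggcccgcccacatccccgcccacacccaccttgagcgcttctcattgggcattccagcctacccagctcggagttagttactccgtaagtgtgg
Such letters are common. Over 32851 windows of this length, TNGCGTG was found in 4.10%, TTCNNNGAA in 7.02%, ATGCAAAT in 1.6% and CCACCC in 28.1%. A window before a RefSeq start was available for 6 of the 9 genes, with 8 windows in all, and CCACCC was present in 6 of the 8. AAGGTCA, the half-site of Esrrb and Nr5a2 (4.08% of all windows), its extended form TCAAGGTCA, which contains it (0.387%), the Sox site CATTGT (10.7%) and the T-box half-site TCACACC (3.33%) were in 0 of the 8. A match describes letters in a short window and does not show binding. Prdm14, Tbx3 and Fbxo15 were not searched.

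The next group of genes encodes DNA-binding factors. Tfcp2l1, a CP2-family factor that acts directly downstream of STAT3, lies on chromosome 1 (118627923 to 118685168). It read 492 and 293 CPM in ES cells, 96.5 and 101 with DMSO, 50.8 and 75.1 after 24 h of TCDD, 45.8 and 47.3 after 72 h, and 41.7 and 44.5 after 96 h. No neighbouring groups overlapped, although the ES pair and the TCDD 24 h pair were wide. Tbx3, a T-box factor placed downstream of LIF and PI3K, lies on chromosome 5 (119670534 to 119684724). Its values were 246 and 199 CPM in ES cells, 19.4 and 20.3 with DMSO, 11.6 and 11.7 after 24 h of TCDD, 13.0 and 8.95 after 72 h, and 9.16 and 10.8 after 96 h. The largest drop lay between ES cells and the DMSO cultures. Both TCDD 24 h libraries were below both DMSO libraries, and the 3 TCDD groups overlapped one another from neighbour to neighbour.

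Prdm14, a PR-domain zinc-finger protein that restrains FGF signalling and DNA methyltransferase genes and also acts in germ cell precursors, lies on chromosome 1 (13113428 to 13127163, minus strand). It was at 37.6 and 35.5 CPM in ES cells, 11.3 and 11.1 with DMSO, 6.91 and 6.85 after 24 h of TCDD, 2.92 and 3.15 after 72 h, and 2.70 and 2.49 after 96 h. Its replicates were close together, and the 5 groups stood in this order without overlap. Zfp42 (Rex1), a zinc-finger gene derived from a Yy1 copy and the classic reporter gene of the naive state, lies on chromosome 8 (43295067 to 43307009). It read 90.4 and 43.2 CPM in ES cells, 68.4 and 68.8 with DMSO, 40.3 and 51.1 after 24 h of TCDD, 32.8 and 42.7 after 72 h, and 36.1 and 36.5 after 96 h. The ES pair enclosed the DMSO pair, and the 3 TCDD groups overlapped from neighbour to neighbour. Of the 51-base stretches of its transcripts, 8.954% also occur in the pseudogene Zfp42-ps1, so its count is uncertain to that extent; for the other 8 genes the share was at most 0.922%.

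The last pair are not transcription factors. Tcl1, a cofactor that raises Akt activity, lies on chromosome 12 (105216753 to 105222737). It was at 64.5 and 93.5 CPM in ES cells, 24.9 and 25.4 with DMSO, 27.2 and 22.3 after 24 h of TCDD, 7.81 and 12.4 after 72 h, and 11.8 and 10.1 after 96 h. The steps were those of Esrrb, with overlap between both 24 h groups and between the 72 and 96 h groups. Fbxo15, an F-box gene driven by Oct4 and Sox2 in ES cells and widely used as a reprogramming reporter, lies on chromosome 18 (84934552 to 84981476). Its values were 221 and 163 CPM in ES cells, 118 and 114 with DMSO, 87.5 and 103 after 24 h of TCDD, 30.2 and 65.3 after 72 h, and 58.5 and 64.5 after 96 h. Replicate 1 of TCDD 72 h was the lowest of the 10 and enlarges the difference of that group. Timm21 overlaps Fbxo15 on the opposite strand. Whether strand was used in counting is not given, so reads of the pair may not be told apart. Timm21 was at 12.5 ± 0.511 CPM with DMSO and 17.7 ± 3.41 after 96 h, a difference that was not called (edgeR adjusted p = 0.834). Per kilobase with DMSO it was at 5.17 CPM, against 60.8 for Fbxo15.

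**Figure D1:**
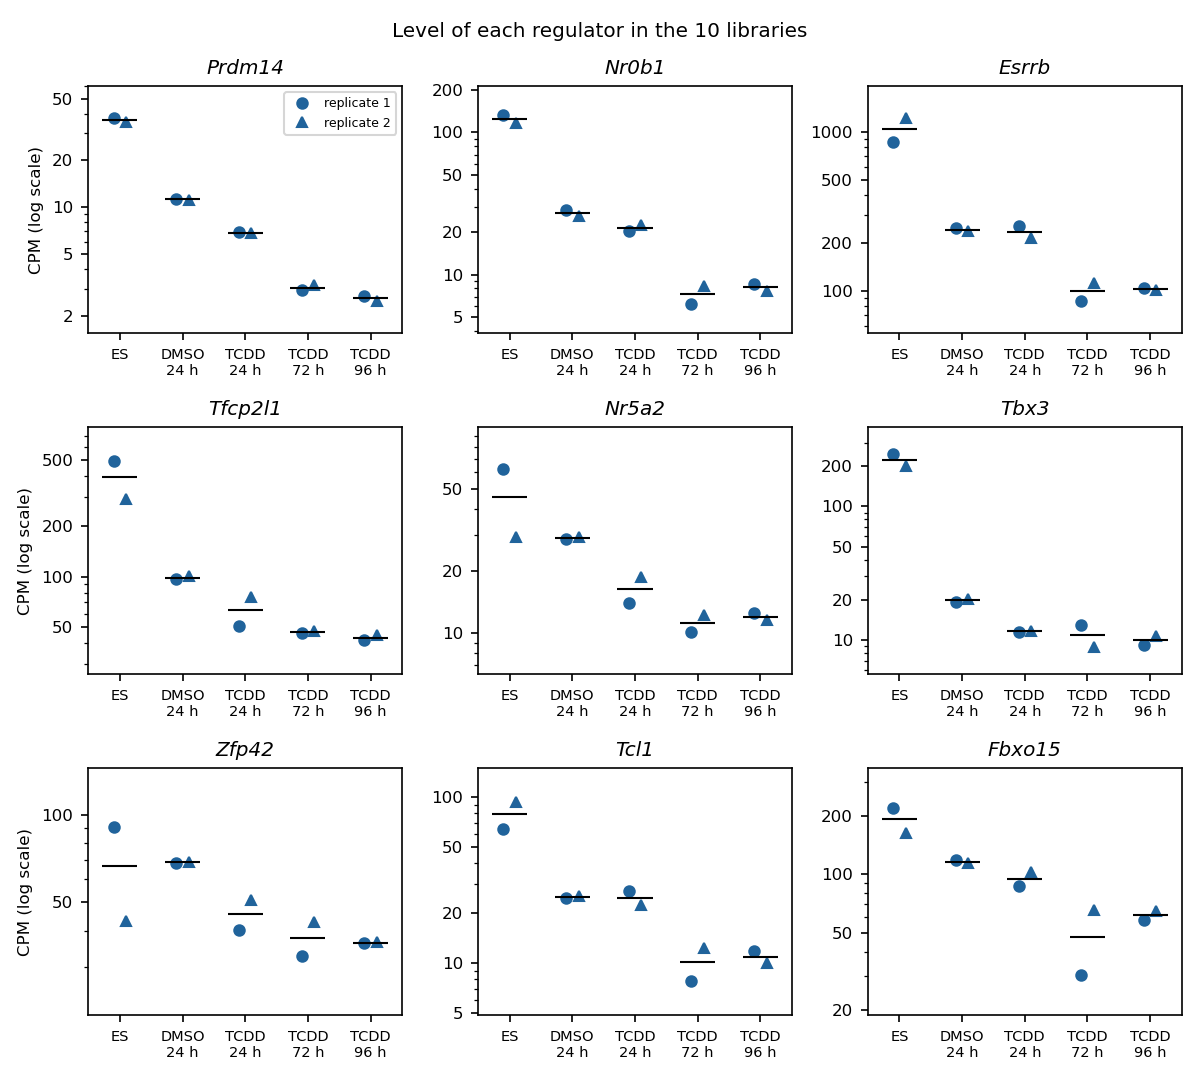
CPM (log axis, different ranges) of each of the 9 genes in the 10 libraries, by group; circles are replicate 1, triangles replicate 2 and bars the mean of 2. Prdm14 steps down through all 5 groups, Tbx3 drops from 222 to 19.9 CPM between ES cells and DMSO, and the Zfp42 ES libraries lie on either side of the DMSO pair.

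Per kilobase of the longest transcript, the order of the genes in ES cells was Esrrb (240 CPM per kb), Fbxo15 (101), Nr0b1 (69.1), Tcl1 (56.5), Tbx3 (44.6), Tfcp2l1 (42.3), Zfp42 (36.4), Prdm14 (14.3) and Nr5a2 (9.66). With DMSO, Fbxo15 (60.8) and Esrrb (56.4) led, Zfp42 came next at 37.3, and Tbx3 was last at 3.99. After 96 h of TCDD, Fbxo15 (32.2), Esrrb (23.9) and Zfp42 (19.8) were the highest means per kb and Prdm14 (1.01) the lowest. Relative to its mean in ES cells, a gene's mean with DMSO ranged from 8.94% (Tbx3) to 102.7% (Zfp42), with a median of 30.7%. After 96 h of TCDD the range was 4.49 to 54.4% of the ES mean, with a median of 10.99%.

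Control cardiomyocyte cultures were first compared with ES cells. Differentiation, loss of LIF, puromycin selection, solvent and time in culture cannot be told apart in this comparison. Of the 9, 6 fell and 0 rose at an adjusted p under 0.05 (edgeR quasi-likelihood test, Benjamini-Hochberg over all genes), where 31% of all genes tested passed and 15.5% fell. For 8 of the 9 the fitted change was below 0, against 49.7% of all genes, and both DMSO libraries were below both ES libraries, against 35.1%, and the median log2 fold change was -1.70 against 0.01 over all genes. Tbx3 fell most, by 3.48 ± 0.245 on the log2 scale (SE, adjusted p = 3.66e-05), an 11.2-fold difference. Nr0b1 fell by 2.21 ± 0.215 (adjusted p = 0.000157) and Esrrb by 2.09 ± 0.238 (0.000344). Tfcp2l1 fell by 1.99 ± 0.284 (adjusted p = 0.00114), Prdm14 by 1.70 ± 0.189 (0.000297) and Tcl1 by 1.65 ± 0.280 (0.00272). Each of these 6 kept its call without any 1 of the 10 libraries and in all 21 alternatives.

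The other 3 genes did not pass. Nr5a2 differed by -0.67 ± 0.330 (adjusted p = 0.152), Fbxo15 by -0.73 ± 0.328 (0.121) and Zfp42 by 0.04 ± 0.321 (0.936). After correction of the counts for GC content, library by library (the GC offset), Nr5a2 (-1.26, adjusted p = 0.000185) and Fbxo15 (-1.28, 0.00679) were called lower, and Nr5a2 was also called without ES replicate 2 (-1.11, 0.00659). Fbxo15 was called without either TCDD 72 h library as well (-0.72, adjusted p = 0.0319 and 0.0326). Zfp42 had no stable sign: it was 0.67 without ES replicate 1 and -0.40 without ES replicate 2. Without ES replicate 1 or 2, or without the 3 libraries that stood apart, ES cells held 1 library, assumed to vary like the rest. Without those 3, Zfp42 was at -0.41, Nr5a2 at -1.12 and Fbxo15 at -0.93. With the GC offset, 8 of the 9 were called lower than in ES cells, against the 6 reported. Calls of lower expression also grew over all 15175 genes, from 2348 in the reported fit to 3875.

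**Figure D2:**
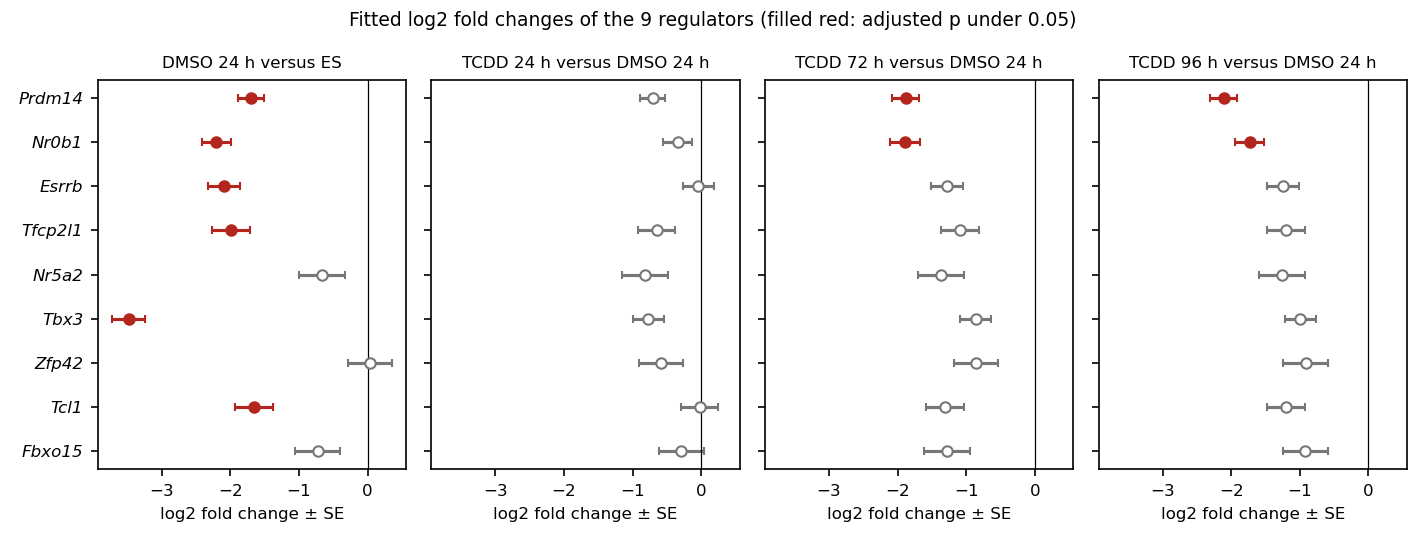
Fitted log2 fold change ± SE of each gene in 4 comparisons; filled red points passed at an adjusted p under 0.05 and open points did not. In the comparison with ES cells 6 genes passed, against DMSO 0 passed at 24 h of TCDD, and Prdm14 and Nr0b1 passed at 72 and 96 h.

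Of the genes around this network, the core and Klf factors had 3 of 7 lower and 0 higher with DMSO than in ES cells, with a median log2 fold change of -0.68. Against these and the next counts stand 15.5% of all genes tested that rose and 15.5% that fell, with a median of 0.01. Klf5 fell by 2.77 ± 0.248 (24.3 against 166 CPM, edgeR adjusted p = 0.000108), Klf4 by 2.42 ± 0.213 (9.67e-05) and Nanog by 0.68 ± 0.193 (0.0274). Pou5f1 differed by -0.73 ± 0.265 (0.0635). The call of Nanog ended without DMSO replicate 1 (0.165) or 2 (0.189), TCDD 24 h replicate 1 (0.0541) or 2 (0.0532), or TCDD 96 h replicate 1 (0.0644) or 2 (0.0709). Among 12 other naive-state genes 7 fell and 2 rose, with a median of -0.89. Jam2, a junction protein, fell by 2.01 ± 0.267 (0.000776) and Ooep by 1.52 ± 0.233 (0.00169), whereas Dppa3 (Stella), a maternal factor that protects DNA methylation, rose from 5.25 to 105 CPM (4.32 ± 0.473, 0.000286) and Tcea3 rose by 1.26 ± 0.201 (0.00204).

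The signalling inputs to the network were examined as lists. Among 9 genes of the LIF pathway 3 fell and 1 rose, and their median log2 fold change was 0.05, near the 0.01 of all genes. The STAT3 feedback inhibitor Socs3 fell from 192 ± 61.4 to 17.8 ± 0.392 CPM (-3.43 ± 0.294, edgeR adjusted p = 8.63e-05), Stat3 from 127 to 45.3 CPM (-1.48, 0.000522) and the kinase gene Pim3 by 0.86 ± 0.289 (0.0493), and Lif itself rose from 9.41 to 21.1 CPM (1.17, 0.00202). Of 10 Wnt genes 3 rose, where 15.5% of all genes rose, and 0 fell, with a median of 0.36. The Wnt target Axin2 rose from 4.58 to 27.6 CPM (2.59 ± 0.275, 0.000254), the nuclear effector Lef1 from 0.594 to 22.4 CPM (5.24 ± 0.389, 4.6e-05), and Apc, a part of the complex that destroys beta-catenin, from 33.1 ± 26.6 to 113 ± 10.4 CPM (1.76, 0.0437). The call of Pim3 ended without ES replicate 2 or any 1 of the 8 other libraries than ES replicate 1 (0.0533 to 0.282), and that of Apc without ES replicate 2 or any 1 of the DMSO, TCDD 72 h and TCDD 96 h libraries (0.0568 to 0.151). Of 11 formative and primed genes tested 8 rose and 2 fell, with a median of 2.15. Pou3f1 rose from 3.93 to 109 CPM (4.80 ± 0.224, 1.05e-05) and Sall2 from 7.73 to 54.1 CPM (2.81 ± 0.203, 3.93e-05).

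Partners and relatives of the 9 were examined in the same comparison, where 31% of all genes tested passed, 15.5% higher and 15.5% lower. Of 11 tested genes for partner proteins, 1 fell, the coactivator Ncoa3 that works with Esrrb (405 to 237 CPM, -0.78 ± 0.194, edgeR adjusted p = 0.0161), and 1 rose, Skp1a, which links F-box proteins to their ubiquitin ligase (1.06 ± 0.318, 0.0337). Of 17 genes of the same families, 9 were expressed enough to test, and of these 2 rose and 1 fell. Tfcp2, the sister gene of Tfcp2l1, fell by 1.25 ± 0.203 (0.00221), and Prdm1, the germ cell regulator of the family of Prdm14, rose by 1.27 ± 0.260 (0.00676). Yy2, which like Zfp42 derives from Yy1, rose by 1.66 ± 0.496 (0.0325). These calls were not firm: Ncoa3 lost its call without DMSO replicate 1 (0.142) or 2 (0.117), Prdm1 without DMSO replicate 1 (0.0563), and Skp1a without ES replicate 2 or any 1 of the DMSO and TCDD 96 h libraries (0.0542 to 0.143). Yy2 lost it without ES replicate 2, TCDD 96 h replicate 2 or any 1 of the DMSO and TCDD 72 h libraries (0.0508 to 0.126) and with the GC offset (0.223), while Tfcp2 kept it throughout.

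TCDD for 24 h was compared with the DMSO control of the same time, the only pair of groups matched in time. None of the 9 genes passed (0% of all genes tested passed, and the smallest adjusted p over all was 0.247). At an unadjusted p under 0.05 there were 1296 genes, and DESeq2 called 41. The 9 fitted differences were all below 0, against 48.3% of all genes, with a median of -0.59 against 0.02, and for 7 of the 9 both TCDD libraries were below both DMSO libraries, against 33% of all genes. The means at 24 h of TCDD were 56.7% of the DMSO mean for Nr5a2, 58.7% for Tbx3, 61.2% for Prdm14, 63.8% for Tfcp2l1 and 66.6% for Zfp42. They were 78.8% for Nr0b1, 81.8% for Fbxo15, 97.2% for Esrrb and 98.5% for Tcl1, and for Esrrb and Tcl1 the groups overlapped. The fitted log2 differences ran from -0.02 (Tcl1) to -0.82 (Nr5a2), with adjusted p from 0.521 to 0.972. Signs were not fixed for all: Fbxo15 was 0.10 with the GC offset, and without TCDD 24 h replicate 2 Esrrb was 0.093 and Tcl1 0.12. Tbx3 (-0.77) and Prdm14 (-0.71) combined a lower mean with TCDD replicates that nearly coincided. Without the 3 libraries that stood apart, 5 of the 9 were called lower, namely Tbx3 (-0.76, adjusted p = 0.0156), Nr5a2 (-0.62, 0.0214), Prdm14 (-0.71, 0.0287), Zfp42 (-0.42, 0.0335) and Tfcp2l1 (-0.39, 0.0409), and 766 genes were called in all. TCDD 24 h then held 1 library, assumed to vary like the rest.

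After 72 h of TCDD, all 9 genes were below the 24 h DMSO control in both libraries, against 26.6% of all genes, and their fitted changes were below 0, against 47.2%. The test called 2 of them, where 0.0461% of all genes passed and 0.0395% passed as lower. Prdm14 fell to 3.03 ± 0.161 from 11.2 ± 0.144 CPM (-1.89 ± 0.200, edgeR adjusted p = 0.0176), and Nr0b1 to 7.30 ± 1.53 from 27.1 ± 1.71 CPM (-1.89 ± 0.218, 0.0285). The means of the 9 were 27.0 to 55.1% of the DMSO means and the median log2 fold change was -1.29, against 0.03 over all genes. The other 7 genes did not pass: Nr5a2 differed by -1.37 (adjusted p = 0.140), Tcl1 by -1.31 (0.107), Esrrb by -1.29 (0.103), Fbxo15 by -1.28 (0.152), Tfcp2l1 by -1.08 (0.150), Tbx3 by -0.86 (0.159) and Zfp42 by -0.86 (0.269). By size of fall among the 15175 genes, Nr0b1 stood 38th and Prdm14 39th, and the 9 ranged down to 464th.

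After 96 h the same 2 genes passed, where 0.0857% of all genes passed and 0.0461% passed as lower. Again all 9 were below DMSO in both libraries, against 32.2% of all genes, with fitted changes below 0, against 49.2%. Prdm14 fell to 2.59 ± 0.152 CPM (-2.11 ± 0.199, edgeR adjusted p = 0.0124) and Nr0b1 to 8.14 ± 0.697 CPM (-1.73 ± 0.215, 0.0323). The remaining 7 had values of -0.92 to -1.26, led by Nr5a2 (-1.26, adjusted p = 0.160) and Esrrb (-1.24, 0.0814), and their adjusted p ran up to 0.284 for Fbxo15. The means of the 9 were 23.1 to 53.0% of the DMSO means, and the median was -1.20 against 0.01. These comparisons share the DMSO libraries, so their values are set side by side without a measure of likeness.

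How many of the 9 passed at 72 and 96 h turned on single libraries and on the fit. At 72 h both calls ended without DMSO replicate 1 or 2, TCDD 24 h replicate 1 or 2, TCDD 72 h replicate 1 or TCDD 96 h replicate 1 or 2, with adjusted p of 0.0602 to 0.352 for Prdm14 and 0.0691 to 0.421 for Nr0b1, while 6 genes passed without either ES library and 5 without TCDD 72 h replicate 2. At 96 h both ended without DMSO replicate 1 or 2 or TCDD 96 h replicate 1 or 2, Nr0b1 also without TCDD 24 h replicate 1 (0.0734) or 2 (0.0724), and 8 genes passed without either ES library. In those fits where 6, 5 or 8 of the 9 passed, more genes passed in all as well. With DESeq2 7 of the 9 passed at both times, and 310 genes in all at 72 h and 249 at 96 h. Without the 3 libraries that stood apart, TCDD 72 h held 1 library, assumed to vary like the rest, and the 9 differences stayed below 0. At 96 h, with 2 libraries in each group compared, all 9 were called lower, among 4397 genes called in all. The spread then came only from the DMSO and TCDD 96 h pairs. Their replicates differed least, with a chi-square per gene of 3.23 and 18.9, against 86.5 to 196.5 in the other groups. With the libraries of the 2 compared groups alone, 0 passed at 72 h and 9 at 96 h. Over all genes, these fits called 0 at 72 h and 4383 at 96 h. The fitted difference of each gene stayed below 0 in all 22 alternatives at 72 and at 96 h.

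**Figure D3:**
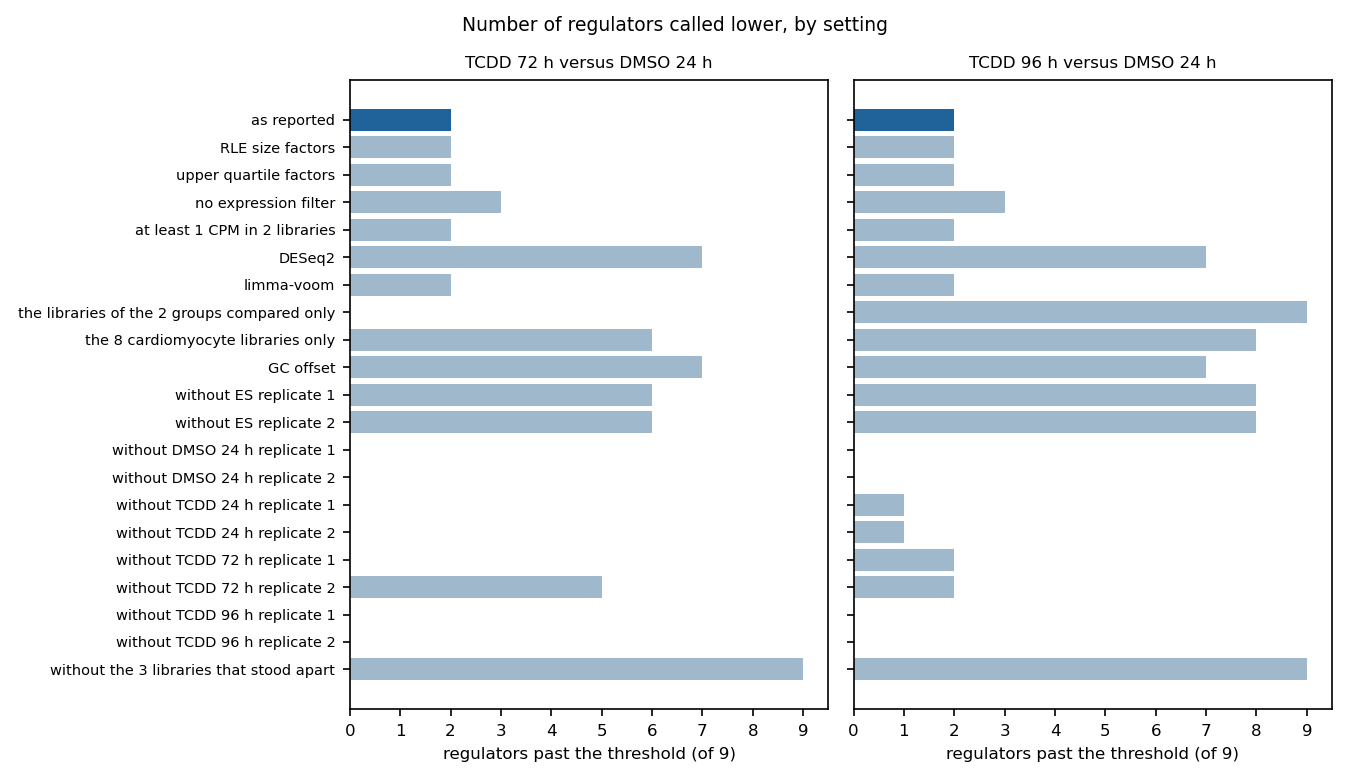
Number of the 9 genes called lower than DMSO at an adjusted p under 0.05, after 72 h (left) and 96 h (right) of TCDD, in the reported fit (dark bar) and in alternatives (light bars, no bar means 0). The counts drawn run from 0 to 9 while the reported fit gives 2 at both times. Alternatives with a replicate block are not drawn. They gave 0 at both times, and 6 at both times with the GC offset added.

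Around the 9, Klf4 was the 1 gene of the other lists that passed against DMSO at either late time. It fell from 43.2 ± 4.09 to 8.96 CPM at 72 h (-2.27, edgeR adjusted p = 0.0134) and 8.23 ± 0.405 CPM at 96 h (-2.39 ± 0.216, 0.0124). Its call at 72 h ended without DMSO replicate 1 (0.139) or 2 (0.176) or TCDD 72 h replicate 1 (0.175), and that at 96 h ended without DMSO replicate 1 (0.189) or 2 (0.209) or TCDD 96 h replicate 1 (0.263) or 2 (0.259). At 96 h the 12 other naive-state genes had 0 calls and a median of -0.98, with Jam2 at 11.6 against 32.4 CPM (-1.48, 0.0814) and Tdh, the threonine dehydrogenase of mouse ES cells, at 128 against 313 CPM (-1.29, 0.0825). The core factors Sox2 (-0.89, 0.112) and Nanog (-0.67, 0.183) did not pass. Of the LIF pathway genes Stat3 was at 24.3 against 45.3 CPM (-0.90, 0.0834) and the LIF receptor gene Lifr at -1.05 (0.325). The formative genes had 0 of 11 calls, with Sall2 at 112 against 54.1 CPM (1.05, 0.0814) and Fgf5 at 59.3 against 23.3 CPM (1.35, 0.0817). These results depended on the fit. With DESeq2, which called 249 genes in all, Jam2, Tdh, Sox2, Stat3, Sall2 and Fgf5 passed at 96 h, while Nanog and Lifr did not.

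The exposure times were also compared with one another, where a longer exposure again meant longer culture. From 24 to 72 h of TCDD, 0 of the 9 genes passed (0% of all genes; 3285 had an unadjusted p under 0.05 and DESeq2 called 622, with 4 of the 9). The 9 differences were below 0, against 47.7% of all genes, with 7 not overlapping, against 26.7%. Nr0b1 differed by -1.54 (adjusted p = 0.149), Tcl1 by -1.29, Esrrb by -1.24 and Prdm14 by -1.18, whereas Tbx3 differed by -0.10. Esrrb and Tcl1 thus overlapped with DMSO at 24 h and were lower in mean at 72 h, and Tbx3 had its lower mean at 24 h already. Whether these patterns differ was not tested. From 24 to 96 h, 0 passed (0% of all genes; 1761 at an unadjusted p under 0.05 and DESeq2 called 129, with 4 of the 9). All 9 genes were lower at 96 h, against 47.3% of fitted changes below 0 over all genes, with no overlap, against 29.4%, led by Prdm14 (-1.41, adjusted p = 0.157), Nr0b1 (-1.39), Esrrb (-1.20) and Tcl1 (-1.18). From 72 to 96 h, 0 passed (0% of all genes; 710 at an unadjusted p under 0.05), and the differences lay between -0.23 and 0.36, with adjusted p of 0.935 to 0.984. Of the 9, 4 were below 0, against 50.8% of all genes, and for 2, Prdm14 and Tfcp2l1, both libraries were lower at 96 h, against 20.3%.

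Replicates of ES cells and of TCDD 24 h, each with a library of steep GC trend, were compared by the GC content of the transcript. In ES cells the 4 genes under 50% GC (Nr5a2, Fbxo15, Zfp42 and Tfcp2l1, 43.25 to 46.98%) were lower in replicate 2 than in replicate 1 by log2 differences of -1.10 to -0.44, and the 5 genes from 50.51 to 55.2% GC differed by -0.30 to 0.54. In TCDD 24 h the same 4 were lower in replicate 1, by -0.56 to -0.23, and the 5 differed by -0.13 to 0.29. In TCDD 72 h, replicate 1 minus replicate 2 was not ordered by GC content: it was -1.12 for Fbxo15 and -0.05 for Tfcp2l1, both under 50% GC, and -0.67 for Tcl1 and 0.53 for Tbx3, both above. The part of GC content in these differences was not tested beyond the GC offset, which left the calls of Tbx3, Nr0b1, Esrrb, Tfcp2l1, Prdm14 and Tcl1 against ES cells in place.

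**Figure D4:**
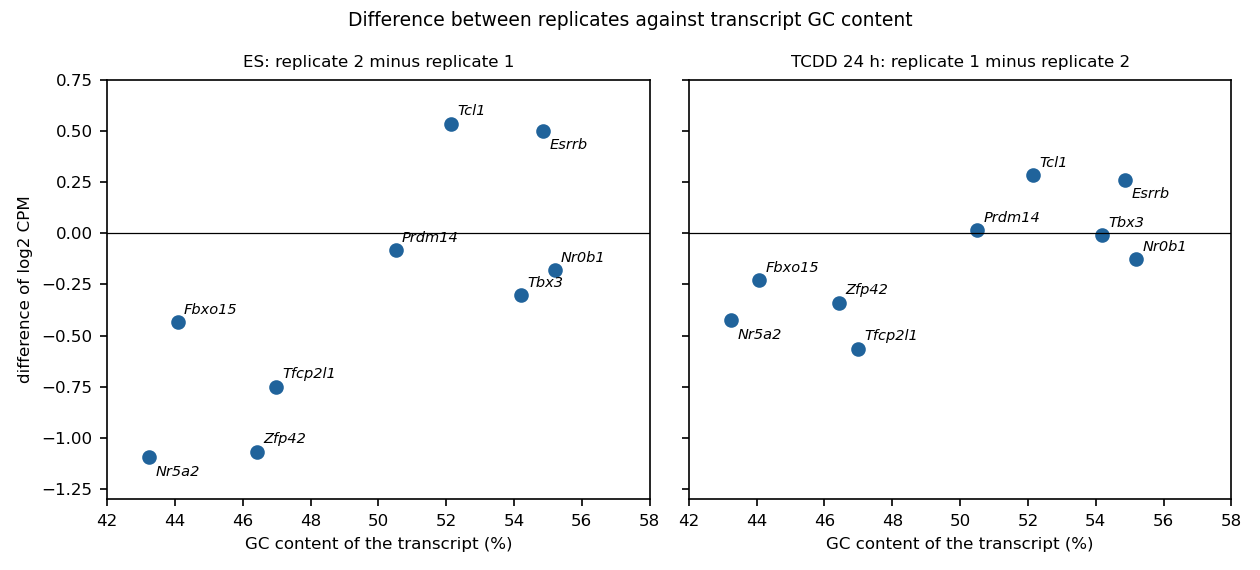
Difference of log2 CPM between the replicates of ES cells (replicate 2 minus 1) and of TCDD 24 h (replicate 1 minus 2) against the GC content of the transcript, 1 point per gene. The 4 genes under 50% GC lie below 0 in both panels, down to -1.10 for Nr5a2 in ES cells.

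Other cell types that such cultures can hold were followed through their markers. The 8 primitive endoderm markers summed to 85.5 to 91.8 CPM in ES cells and 34.4 to 35.3 with DMSO, with 3 called lower and 2 higher, and to 37.7 to 40.8 at 72 h and 39.6 to 40.1 at 96 h of TCDD. In these sums Lama1 alone went from 68.7 CPM in ES cells to 15.9 with DMSO, while the means of the other 7 added up to 19.9 and 18.9 CPM, and to 25.8 at 72 h and 28.2 at 96 h. Trophoblast markers summed to 158 to 164 CPM with DMSO, 98.6 to 112 at 72 h and 120 to 122 at 96 h. Here Tfap2c alone went from 113 CPM to 44.7 and 54.8, and the other 7 together were higher, at 48.2, 60.4 and 66.2 CPM. Lama1 and Tfap2c were singled out after their values were seen. Germ cell markers, of interest because Prdm14 also acts there, summed to 66.8 to 127 CPM in ES cells, 59.8 to 61.9 with DMSO and 52.7 to 53.9 at 96 h. Cardiomyocyte markers summed to 33.1 to 34.4 CPM at 72 h and 32.1 to 33.3 at 96 h, near the DMSO range of 31.2 to 33.1, and Pln was at 0 in ES cells and at 24 and 96 h of TCDD. Tbx3, which also has a role in the heart, was not among the 6 pacemaker markers. These summed to 1.73 to 1.76 CPM in ES cells, 2.49 to 2.69 with DMSO and 3.92 to 4.45 at 96 h. At 72 and 96 h of TCDD against DMSO 0 genes of these 5 lists passed. The part of these cells in the levels of the 9 genes was not tested.

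Profiles over the 10 libraries, compared as the root mean square difference of log2 CPM after centring each gene, set some of the 9 close together. Esrrb and Tcl1 differed least (0.20), then Prdm14 and Nr0b1 (0.23), and Tbx3 and Zfp42 most (1.495). Outside the group, the nearest genes were Mymx (0.31) and Jak3 (0.33) for Prdm14, Cmklr1 (0.29) and Mymx (0.31) for Nr0b1, and Aes (0.19) and Cmklr1 (0.22) for Esrrb. Tfcp2l1 was nearest to Jam2 (0.16) and Tex14 (0.22), and Nr5a2 to Zc3hav1 (0.22) and Eps8 (0.22). Tbx3 was nearest to Hap1 (0.28) and Cpt1a (0.32), Zfp42 to Enpp4 (0.11) and Rad51c (0.14), Tcl1 to Itgb7 (0.12) and Pfkp (0.21), and Fbxo15 to Ak4 (0.13) and Rab27a (0.20). The 10 libraries share depth and GC trends, so a small difference describes these libraries and not a common control. With another prior count, 0.5, the second neighbour of Esrrb was Itgb7 (0.22).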

How the data were processed

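Per the labels' protocols, poly(A) RNA from TRIzol extracts gave stranded dUTP libraries, sequenced on 1 end for 51 bp. The authors deposited raw whole-number counts per gene. Tools named in the submitters' processing notes are bcl2fastq, CASAVA 1.8, TopHat and edgeR, with mm10 as the build. Not given in the sources used here are the counting tool, the strand setting and the annotation. The 1 unnamed row (0.000201 to 0.00285% of a library) was left out.

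The test was edgeR's quasi-likelihood test (edgeR 4.0.16 under R 4.3.3) with robust dispersion, TMM factors and the default expression filter, on all 10 libraries with 1 mean per group (15175 genes, 5 residual degrees of freedom). Calls are two-sided at a Benjamini-Hochberg adjusted p under 0.05 over all genes of a comparison, for 7 comparisons. SE is that of the fitted log2 fold change and SD is over 2 libraries. The edgeR script was also tested on simulated counts. Log2 CPM used a prior count of 2. GC content and transcript lengths came from GENCODE vM21, coordinates and promoters from RefSeq GRCm38.p6 by Entrez identifier. A GC offset used a loess of span 0.3 over the 95.87% of tested genes with a value. Nearest profiles were sought among genes with a mean of at least 5 CPM, without predicted genes.

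The 9 genes, the 13 gene lists and the tests were chosen with earlier results of these data known. All 9 are named, and from each list up to 4 genes with the smallest p in the comparison described. Timm21, which overlaps Fbxo15, was added after its position was seen. Alternatives were RLE and upper quartile factors, no filter, 1 CPM in 2 libraries, DESeq2 1.42.0, limma-voom (limma 3.58.1), other sets of libraries, the GC offset, a replicate block, each library left out in turn, and 3 libraries left out together. Where a removal left 1 library in a group, it was assumed to vary like the others. Nothing in the labels tells whether the replicates were separate cultures. The p-values then reflect the spread among these libraries only, and that may be technical.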

Additional observations from a re-analysis of the deposited data

How the results depend on the processing

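Over the 9 genes and 7 comparisons, 1162 of 1377 alternative values kept the direction and the side of the threshold, 30 lost a call, 160 gained one and 25 changed sign; 0 of the sign changes were against DMSO at 72 or 96 h. Of 1355 values of 54 other named genes, 1147 kept both, 82 lost a call, 126 gained one and 0 changed sign. The cause was not tested where a library or tool moved a call. Without the 3 libraries that stood apart, ES cells, TCDD 24 h and TCDD 72 h each held 1 library, assumed to vary like the rest. The count of the 9 called against ES cells, 6 as reported, was 8 with the GC offset, 8 with it and the replicate block, and 9 without the 3 libraries that stood apart. The count, 2 in the reported fit at 72 h against DMSO, was 7 with DESeq2, 0 with the 2 groups alone, 6 with the 8 cardiomyocyte libraries, 7 with the GC offset and 9 without the 3 libraries that stood apart. At 96 h, also from 2, it was 7, 9, 8, 7 and 9 in that order. At 24 h it was 5 without the 3 libraries. From 24 to 72 h it was 1 with no filter, 4, 5, 4, 3 and 7, and from 24 to 96 h it was 4 with DESeq2, 3 with 8 libraries, 3 with the GC offset and 8 without the 3.

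All genes called moved as well. With the GC offset, calls against ES cells went from 4697 to 6665, and to 5989 with the replicate block added. Against ES cells, 4697 became 2337 with the 2 groups alone and 8027 without the 3 libraries. At 24 h, 0 became 1 with no filter, 41 with DESeq2, 1 with 8 libraries, 5 with the GC offset and 766 without the 3. At 72 h, 7 became 59 with no filter, 310 with DESeq2, 0 with the 2 groups, 288 with 8 libraries, 539 with the GC offset and 1967 without the 3. At 96 h, 13 became 98, 249, 4383, 380, 772 and 4397 in that order. From 24 to 72 h, 0 became 9, 622, 1430, 1240, 37 and 924, and from 24 to 96 h 2 with no filter, 129 with DESeq2, 83 with 8 libraries, 112 with the GC offset and 1828 without the 3. From 72 to 96 h, 0 became 2 without the 3.

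Deviations of same-numbered libraries from their group means correlated between -0.755 and 0.448 across genes, above 0 in 4 of 10 pairs of groups. Groups with a library of steep GC trend are among them, so the values do not settle whether replicate numbers pair the samples. With a replicate block, 0 of the 9 and 0 genes in all passed at 72 h and at 96 h. With the GC offset and replicate block together, 6 of the 9 passed at both times, with 180 genes in all at 72 h, 340 at 96 h and 4 from 24 to 96 h.

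With 1 library left out in turn, the 9 had 6 to 7 calls against ES cells, 0 to 0 at 24 h, 0 to 6 at 72 h, 0 to 8 at 96 h, 0 to 5 from 24 to 72 h, 0 to 3 from 24 to 96 h and 0 to 0 from 72 to 96 h. All genes called ranged from 1902 to 7736, 0 to 1, 0 to 969, 0 to 376, 0 to 1468, 0 to 97 and 0 to 331 in the same order. The lowest count against ES cells came without DMSO replicate 2 and the highest without ES replicate 1; the highest at 72 h (969) and from 72 to 96 h came without TCDD 72 h replicate 2, and the highest at 96 h and from 24 to 72 and 96 h without ES replicate 1.

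Signs changed as follows. Zfp42 against ES cells was -0.15 with the GC offset, -0.15 with it and the block, -0.40 without ES replicate 2 and -0.41 without the 3 libraries. At 24 h Fbxo15 was 0.10 with the GC offset and 0.10 with it and the block, and without TCDD 24 h replicate 2 Esrrb was 0.093 and Tcl1 0.12. From 24 to 72 h Tbx3 was 0.14 with the GC offset, 0.13 with it and the block and 0.12 without TCDD 72 h replicate 2. From 72 to 96 h, without TCDD 72 h replicate 1, Nr0b1 was -0.041, Esrrb -0.13, Nr5a2 -0.017, Tbx3 0.16, Tcl1 -0.18 and Fbxo15 -0.088; without the 3 libraries they were -0.035, -0.12, -0.012, 0.16, -0.18 and -0.084; Zfp42 was 0.17 without TCDD 72 h replicate 2 and Tbx3 0.004 without TCDD 96 h replicate 1. For these 9 the highest or lowest values with 1 library left out were 0.674 for Zfp42 against ES cells (without ES replicate 1), -0.17 for Tcl1 at 24 h (without TCDD 24 h replicate 1) and -0.383 for Tbx3 from 24 to 72 h (without TCDD 72 h replicate 1). From 72 to 96 h they were 0.413 for Nr0b1, 0.266 for Esrrb, 0.271 for Nr5a2, -0.351 for Tbx3, 0.51 for Tcl1 and 1.052 for Fbxo15 without TCDD 72 h replicate 2, and -0.232 for Zfp42 without replicate 1. Beside depth, 2 libraries a group with 5 residual degrees of freedom limit the precision.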
